A study of Schizosaccharomyces japonicus with 2 samples.

Results

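The long stretch of supercontig 3 to which almost no small RNA read was mapped, and the 50 kb of sequence on each side of it, were described in wild-type Schizosaccharomyces japonicus, a fission yeast. The members were distinct mapped positions (start, end and strand) of reads of 21 to 28 nt whose leftmost base lay between bases 819001 and 1038000 of supercontig 3. The region was selected on measured values, because its centre lacked reads in these same libraries, so the presence of the gap is a description and supports nothing. There were 15375 such positions among 594345 in the 2 libraries together, with 14061 to the left of the gap, 5 inside it and 1309 to its right. Replicate 1 held 4131 of them among 223429 and replicate 2 held 12819 among 474395.

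The study sequenced small RNA from 1 group of 2 libraries, both of strain yFS275 harvested in logarithmic growth, and compared no conditions. The labels call the libraries replicates without naming a culture for each, and their spread may therefore be only technical. Replicate 1 held 3086539 mapped reads and replicate 2 held 3492513. Their makeup differed. Bases 1 to 37000 of supercontig 3, a dense region on 1 strand called the block below, held 71.1% of the reads of 21 to 28 nt in replicate 1 and 29.5% in replicate 2. Values are therefore given per 1000000 reads outside the block (RPM), from 889190 reads in replicate 1 and 2457514 in replicate 2, unless another total is named. With 2 libraries the smallest two-sided p of an exact sign-flip permutation test between the sides is 0.5, so no test was made, and each value is shown for both libraries. Intervals are 95% Clopper-Pearson intervals and cover counting error only, since copies made by PCR cannot be told from separate molecules.

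Fission yeasts make small interfering RNA from double-stranded RNA, which the nuclease Dicer cuts into short duplexes with 3′ overhangs on each strand. In Schizosaccharomyces pombe, Argonaute binds these RNAs and guides the silencing of repeats beside the centromeres. In S. japonicus, retrotransposons lie clustered around centromeres and telomeres and are known as sources of small RNA. Which genes, retrotransposons or centromere sequences these bases hold was not analysed here, and no base sequence was joined to the reads.

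The gap was nearly the same length as the longest quiet stretch of each of the other long supercontigs. A quiet stretch was a run of 1-kb windows with at most 2 reads in each library. On supercontig 3 the longest ran over 119 windows, from base 869001 to 988000, and the next longest over 29. Between the last base covered before it, 868554, and the first covered after it, 988596, lay 120041 bases. The same distance was 120061 bases on supercontig 1 and 120073 bases on supercontig 2. The 3 distances were thus alike to within a fraction of one window. Whether these stretches are runs of unknown bases in the assembly was not analysed here, so a lack of reads does not show that the DNA there made no small RNA. Inside the gap on supercontig 3 there were 5 reads at 3 positions in replicate 1 and 4 reads at 3 positions in replicate 2. One plus-strand position, from base 978720 to 978740, was present in both libraries with 2 reads in each. These few reads all had a single best place and a span of 21 or 22 nt. The position present in both libraries had a mapping score of 25 in each, below the highest deposited score of 37.

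Taken over 50 kb, small RNA was far more abundant to the left of the gap than to the right, and this lead came from the 20 kb next to the gap. The left side held 6777 reads in replicate 1 and 51822 in replicate 2, and the right side, over the same length, held 696 and 1036. The left side thus had 9.74 times as many reads as the right in replicate 1 and 50.02 times as many in replicate 2. The direction was shared, but the size of the ratio rested on the library. Of the reads outside the block, the left side made up 0.762% (interval 0.744 to 0.780) for replicate 1 and 2.11% (2.09 to 2.13) for replicate 2, or 1.44% ± 0.952 (SD, n = 2). The right side made up 0.0783% (0.0726 to 0.0843) and 0.0422% (0.0396 to 0.0448), or 0.0602% ± 0.0255 (SD, n = 2). With sequences of a single best place alone, the left side led by less, with 638 reads against 496 in replicate 1 and 4600 against 605 in replicate 2.

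**Figure D1:**
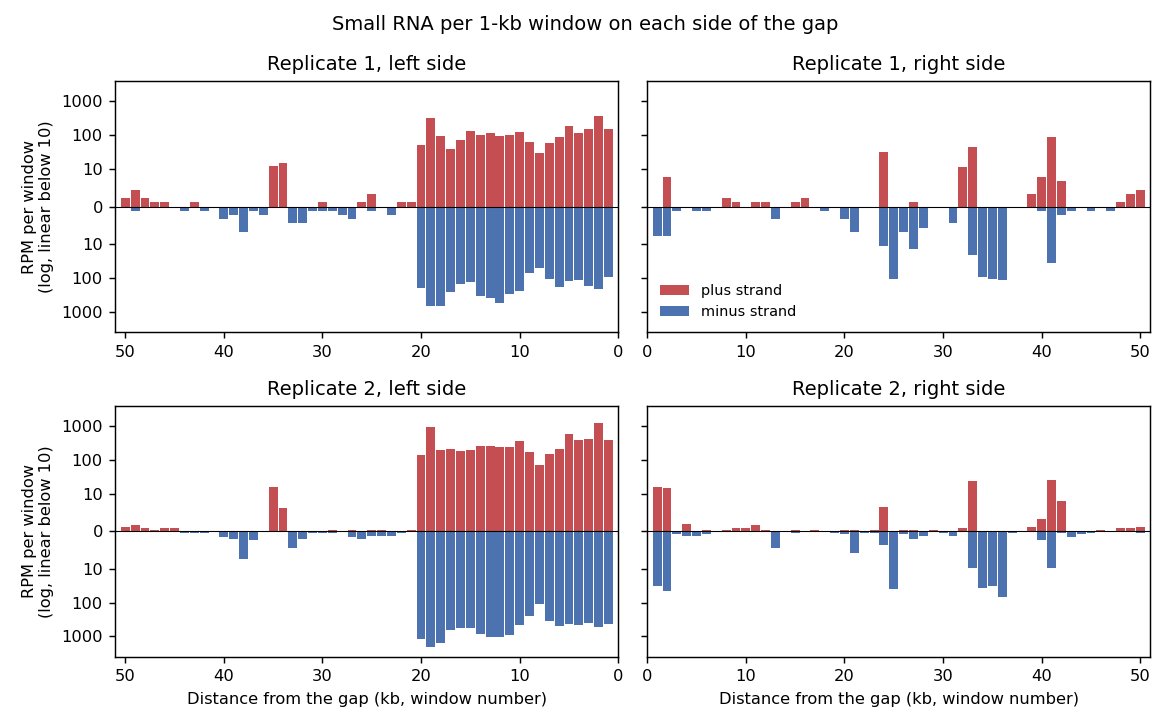
RPM of each 1-kb window (vertical axis, logarithmic above 10) against its distance from the gap (kb) for the left and right sides and each library, plus strand upward and minus strand downward. In the 20 windows next to the gap on the left the totals lie between 80.97 and 995 RPM in replicate 1 and between 179 and 3063 RPM in replicate 2, while no window on the right exceeds 125 RPM.

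The signal on the left was a sharply bounded stretch that ran up to the gap. The window at bases 848001 to 849000 held 1 read in each library, and the next held 221 reads in replicate 1 and 3201 in replicate 2. The first position past that boundary began at base 849030 in replicate 1 and at base 849026 in replicate 2, and the last covered base before the gap was 868541 and 868554. The 20 windows from base 849001 to 869000, called the inner left segment, held 6699 of the 6777 left reads in replicate 1 and 51676 of 51822 in replicate 2. This and the other segments were delimited after the values were seen. A window was called dense at 100 RPM or more in each library, which 5.92% of the 10234 windows with reads outside the block were. On the left, 19 of 49 windows with reads were dense, and all 19 lay in the inner left segment, where they and the window at 861001 to 862000 formed 1 locus. That remaining window had 80.97 RPM in replicate 1 and 179 RPM in replicate 2. Each of the 19 dense windows had 10% or more of its reads on the minor strand in both libraries. Such windows were 4.44% of the 10234 but 454 of all 606 dense windows, so this trait was common among dense windows.

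On the right 0 of 47 windows with reads were dense in both libraries, against 5.92% of all windows with reads outside the block. At that share only a few of 47 would be dense, so the 0 lay near the general level. Counted in 1 library, 4 windows were over 100 RPM in replicate 1 and 0 in replicate 2, with no general share to set beside them. A small patch next to the gap, bases 988001 to 991000 and called the inner right segment, held 22 reads in replicate 1 and 269 in replicate 2. All of these came from sequences with several equally good places. The 47 kb beyond, the outer right segment, held 674 and 767 reads, of which 26.4% and 21.1% had several places. Nearly all left reads lay within 20 kb of the gap, and most right reads lay farther away. Within 10 kb of the gap lay 37.3% of the left reads in replicate 1 and 39.3% in replicate 2, and within 20 kb 98.8% and 99.7%. On the right, 4.02% (2.69 to 5.76) of replicate 1 and 28.0% (25.3 to 30.8) of replicate 2 lay within 10 kb, and 6.32% and 30.98% within 20 kb. The right share close to the gap thus differed between the libraries, with 3.02% and 25.9% within 2 kb. The position nearest to the gap on the right lay at bases 988693 to 988715 in replicate 1 and at bases 988596 to 988618 in replicate 2, with 1 minus-strand read in each.

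The inner left segment was covered over most of its length, and much of it on both strands. Positions on the plus strand covered 56.7% of its bases in replicate 1 and 84.4% in replicate 2, those on the minus strand 71.9% and 91.0%, and 42.5% and 79.2% of bases were covered on both strands. In the outer right segment the strands covered the same base at only 0.168% and 0.160% of bases, although 11.5% and 12.7% were covered on 1 of them or both. No base of the outer left segment (819001 to 849000) was covered on both strands, and its 78 and 146 reads were spread over 30 kb. Cover was not compared at equal read number, and the part of depth in it was not tested.

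The minus strand prevailed in the inner left segment as a whole, since the plus strand had 32.8% (31.7 to 34.0) of its reads in replicate 1 and 32.4% (31.96 to 32.8) in replicate 2, or 32.6% ± 0.317 (SD, n = 2). The balance shifted along the segment. In its first 10 windows the plus strand held 23.6% (22.3 to 24.8) and 21.7% (21.3 to 22.2) of the reads, and in the 10 windows next to the gap 49.3% (47.3 to 51.4) and 50.4% (49.7 to 51.2). In the last 5 windows before the gap it was the major strand in sum, with 57.7% and 57.1%. Reads with a single best place shifted in the same direction, from 14.01% and 16.0% in the first 10 windows to 48.5% and 47.4% in the last 10. Counting each position once made the shift smaller, from 30.3% and 38.3% to 48.6% and 49.6%. Across the 20 windows the plus-strand share of the libraries had Pearson r = 0.86 and Spearman rho = 0.89. These windows share libraries and repeated sequences, so this is only a description.

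**Figure D2:**
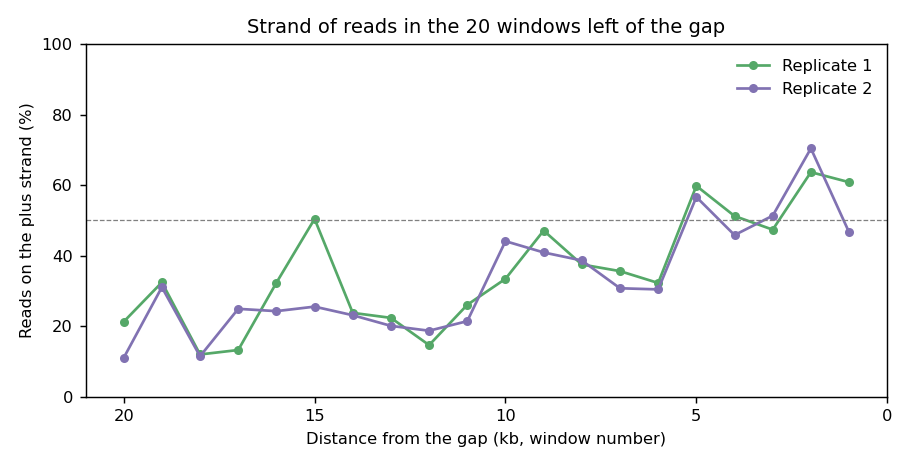
Percentage of reads on the plus strand (vertical axis) in each of the 20 windows of the inner left segment against distance from the gap (kb), for each library. Both lines lie mostly below the dashed 50% line far from the gap and near or above it in the last 5 windows, where the summed shares are 57.7% and 57.1%.

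The 5 densest windows on the left, by the mean of the libraries, were spread along the segment. Bases 850001 to 851000 came first, with 885 reads in replicate 1 and 7528 in replicate 2, which is 995 and 3063 RPM, and 32.4% and 31.1% of these reads lay on the plus strand. Bases 851001 to 852000 had 787 and 1714 RPM with 12.0% and 11.5% on the plus strand, so this was among the most minus-biased windows. Bases 867001 to 868000, close to the gap, had 576 and 1735 RPM with the opposite bias, 63.7% and 70.4% on the plus strand. The remaining windows of the 5 were 857001 to 858000, with 660 and 1300 RPM, and 856001 to 857000, with 513 and 1285 RPM. Each of these windows was denser in replicate 2.

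Most reads of the inner left segment came from sequences that align equally well elsewhere, 91.6% (91.0 to 92.3) in replicate 1 and 91.4% (91.1 to 91.6) in replicate 2, against 72.9% and 70.1% of all reads outside the block. Such a sequence was listed at 1 of its places, so its position stands for any of its copies. The single-place reads of the segment, 560 and 4454, lay unevenly. The window at 862001 to 863000 held 119 and 993 of them, with only 18.5% and 17.5% of its reads from several places. The windows at 857001 to 859000 and at 861001 to 862000 held none. Bases 850001 to 851000 held 113 and 967 single-place reads and bases 863001 to 864000 held 100 and 647, but most reads there had several places. The segment thus had 1 mostly unique window, with further single-place reads in other windows. In that unique window the plus strand held 35.6% and 30.8% of the reads and 23 nt held 47.3% and 44.1%.

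Single members carried little of the left signal. The most abundant was a minus-strand position of 23 nt from base 849279 to 849301, with 0 reads in replicate 1 and 1820 in replicate 2, or 3.51% of the left reads of that library. The next by the mean of the libraries, also on the minus strand, were bases 850974 to 850996 with 0 and 387 reads and bases 854987 to 855010 with 0 and 357 reads. All 3 had several equally good places, and none was listed at that position in replicate 1. Whether their sequences were listed at another copy there was not analysed. The member that led replicate 1 held 115 reads, or 1.70% of the left reads. In replicate 2 the first window of the segment had 71.5% of its reads at 23 nt, and 34.03% when the member at 849279 was left out, so that value rested on 1 member. The 10 most abundant members held 6.77% and 8.03% of the left reads. On the right the leading member, at bases 989207 to 989228 on the minus strand, had 0 and 20 reads, and the next were bases 1028135 to 1028159 with 6 and 2 reads and bases 1023684 to 1023704 with 3 and 10 reads.

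Counted by 5′ end, the leading left positions were the minus-strand base 849301 with 0 and 1820 reads, the plus-strand base 867332 with 3 and 553 reads, and the minus-strand base 850996 with 0 and 406 reads. On the right the leading 5′ end was the minus-strand base 1023704, with 6 and 40 reads of 4 and 5 spans, followed by 989228 with 0 and 27 reads and 1028168 with 5 reads in each library, both on the minus strand. The start of these RNAs was shared between spans more often than their end in the inner left segment. There, 42.9% of the reads of replicate 1 and 71.8% of those of replicate 2 began at a base where reads of more than 1 span began, while 19.0% and 46.7% ended at a base where reads of more than 1 span ended. In the outer right segment these shares lay closer together, 23.7% for starts and 27.9% for ends in replicate 1, and 35.9% and 33.2% in replicate 2. The difference between segments was not tested.

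Members of the inner left segment recurred between the libraries. Of the 3433 positions of replicate 1, 43.1% were also in replicate 2, which is 12.4% of the 11888 positions of that deeper library. Positions with a single best place recurred more often than those with several, at 73.3% against 39.0% of the positions of replicate 1. A sequence with several places is listed at 1 of them, which may differ between the libraries. A position missing from a library thus need not be a missing sequence, and this was not tested. In the outer right segment 14.9% of 596 positions were shared, or 14.2% of 627. Depth differs between these segments, and the shares were not compared at equal depth. When the left reads were thinned to the number on the right, the expected number of distinct positions was 573 against 617 in replicate 1 (696 reads) and 798 against 785 in replicate 2 (1036 reads). At equal depth the sides, taken over 50 kb, thus had a similar number of positions per read. Next to the gap this did not hold in replicate 2, with 240 expected in the inner left segment against 158 in the inner right (269 reads). In replicate 1 these were 21.8 against 21, from only 22 reads.

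Read size differed between the segments. In the inner left segment 23 nt was the most frequent span, at 40.5% (39.3 to 41.7) for replicate 1 and 41.7% (41.3 to 42.2) for replicate 2, or 41.1% ± 0.870 (SD, n = 2). It was followed by 22 nt with 23.6% and 21.9% and by 24 nt with 20.6% and 20.3%, so the sizes formed a peak. In the outer right segment there was no such peak. The share went from 25.7% and 24.4% at 21 nt, the lower limit of the sizes, to 15.7% and 13.6% at 25 nt, and 23 nt held 21.4% (18.3 to 24.7) and 21.6% (18.8 to 24.7). The interval of the outer right segment lay far below that of the inner left segment in each library. Outside the block in general, 25.8% and 34.3% of reads were 23 nt long. Among the single-place reads of the inner left segment 23 nt held 41.4% in each library, close to the value for all its reads. It was lower with each position counted once, 34.5% and 29.7%, against 21.5% and 20.9% in the outer right segment.

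In size the inner right patch was closer to the inner left segment than to its own surroundings in replicate 2. In replicate 1 it was too sparse to place by its 23-nt share. In replicate 2, 36.1% (30.3 to 42.1) of its 269 reads were 23 nt long and 14.5% (10.5 to 19.3) were 21 nt. In replicate 1 the patch held only 22 reads, and its 23-nt share of 31.8% (13.9 to 54.9) has an interval that holds the values of both. Its 21-nt share there was 4.55% (0.115 to 22.8), from 1 read. That interval holds the 9.81% of the inner left segment but not the 25.7% of the outer right, whose own interval (22.4 to 29.1) it slightly overlaps. The patch had reads on both strands, with 31.8% on the plus strand in replicate 1 and 27.1% in replicate 2. All but 1 read in replicate 1 and 2 reads in replicate 2 lay at bases 988001 to 990000.

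**Figure D3:**
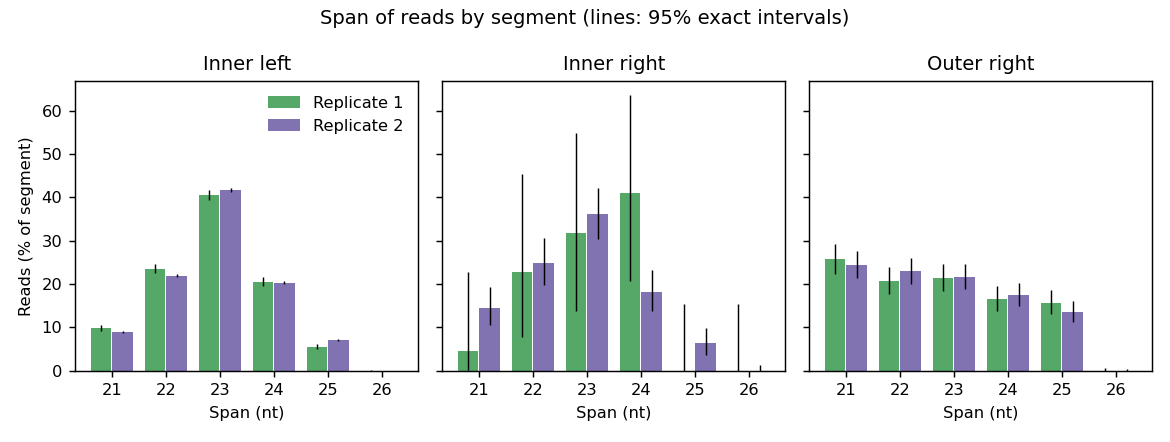
Percentage of reads (vertical axis) by span in nt for the inner left, inner right and outer right segments in each library, with 95% exact intervals as lines. The inner left bars peak at 23 nt with 40.5% and 41.7%, and the outer right bars are highest at 21 nt, with 21.4% and 21.6% at 23 nt.

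Away from the gap, the right side held its reads in 3 places, and in 2 of them the strands lay side by side rather than over each other. These places, delimited after the values were seen, were bases 1011001 to 1013000, 1020001 to 1024000 and 1028001 to 1029000, and they held 86.5% of the outer right reads of replicate 1 and 82.5% of those of replicate 2. In the first, plus-strand reads covered bases 1011172 to 1011537 with 29 and 16 reads, and minus-strand reads covered bases 1011668 to 1012977 with 106 in each library. In the next, plus-strand reads lay at bases 1020007 to 1020465 with 39 and 58 reads, and minus-strand reads at bases 1020516 to 1023947 with 298 and 367. Over these 4 stretches the opposite strand had 0 reads in both libraries. In the last place the order was turned round and the strands partly overlapped, with minus-strand reads at bases 1028062 to 1028183 (33 and 22) before plus-strand reads at bases 1028555 to 1029019 (74 and 47). Here the opposite strand had 4 and 15 reads over the minus-strand stretch and 0 and 1 over the plus-strand stretch.

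The minor-strand share of a window can therefore mislead on the right. Taken in windows of 1 kb, the minor strand held 9.79% of the outer right reads in replicate 1 and 9.78% in replicate 2, but neighbouring stretches of opposite strand fall into the same window. The inner left segment had 29.1% and 28.3% on the minor strand by the same measure. The 5 densest windows on the right were all in these 3 places. Bases 1023001 to 1024000 had 116 and 69.2 RPM, bases 1028001 to 1029000 had 125 and 35.0 RPM, and bases 1012001 to 1013000 had 108 and 39.5 RPM. Bases 1022001 to 1023000 followed with 106 and 33.4 RPM and bases 1021001 to 1022000 with 92.2 and 37.03 RPM. No member of the outer right segment had more than 6 reads in replicate 1 or 11 in replicate 2, so these windows were built from many positions of few reads.

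The outer left segment was sparser still. Its reads were 0.116 times those of the outer right segment in replicate 1 and 0.190 times in replicate 2, or 0.181 and 0.298 times per kb, so away from the gap the right side was the denser. All of its reads had a single best place, and the 23-nt share was 17.9% (10.2 to 28.3) of 78 reads in replicate 1 and 19.2% (13.1 to 26.5) of 146 reads in replicate 2. Its most populated window by mean RPM, at 834001 to 835000, held 11 and 38 reads, all on the plus strand. The window at 835001 to 836000, which led in replicate 1, held 13 and 15 reads, also all on the plus strand. At the outer limits of the region the windows just inside and just outside were alike. Bases 818001 to 819000, outside, held 4 and 2 reads and bases 819001 to 820000, inside, held 2 and 3. Bases 1037001 to 1038000, inside, held 4 reads in each library, and bases 1038001 to 1039000, outside, held 2 and 7.

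Positions on opposite strands of the inner left segment were more often offset as Dicer duplexes are than at neighbouring offsets. Pairs of positions of one span were counted by the start of the minus member less that of the plus member, and a difference of −2 nt leaves 2-nt 3′ overhangs at each end. In replicate 1 such pairs numbered 53, which is 1.65 times the mean of 32.1 ± 5.73 (SD over the 20 other differences within 10 nt). In replicate 2 they numbered 538, which is 1.43 times the mean of 378 ± 31.4. That count was the highest of the 21 differences in both libraries, and no neighbour exceeded 48 and 423. Among single-place positions the pairs numbered 9 against a mean of 5.25 in replicate 1, where 1 neighbour had 10, and 83 against 54.2 in replicate 2. By span, in replicate 2 the count at −2 nt was the highest at 21, 22, 24 and 25 nt, and at 23 nt it was only the fifth highest, with 167 pairs against a mean of 149. In replicate 1 it was the highest at 24 nt alone, with 15 pairs against a mean of 7.45. Neighbouring counts share positions, so no p-value is given.

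**Figure D4:**
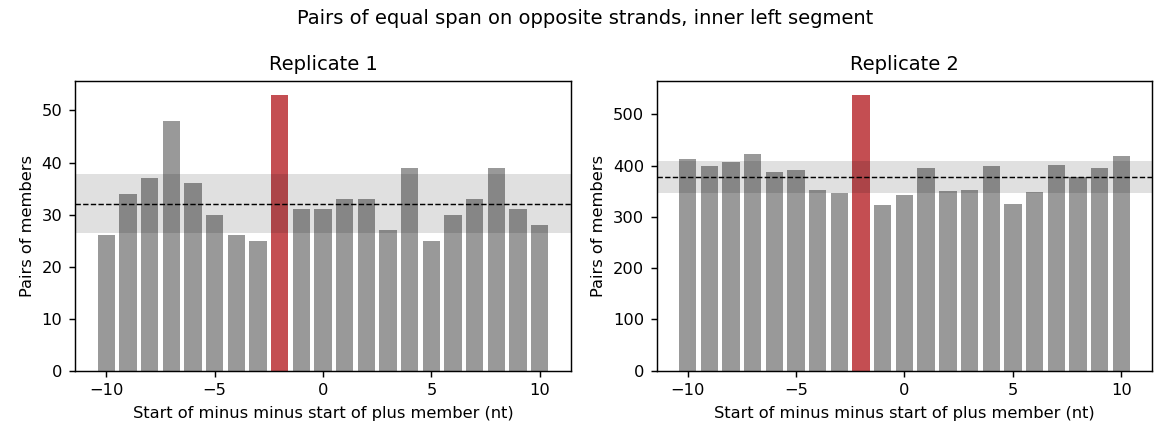
Number of pairs of equal span on opposite strands in the inner left segment (vertical axis) by the difference of their starts in nt, for each library. The red bar marks −2 nt, the dashed line the mean of the other differences and the grey band its SD, and the red bars stand at 53 and 538 against means of 32.1 and 378.

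The 5′ ends of the inner left segment were spaced in 2 further ways. Diverging 5′ ends on opposite strands with 2 bases between them numbered 180 in replicate 1, against a mean of 110 ± 16.5 (SD over 20 neighbouring gaps), and 1173 in replicate 2, against 822 ± 64.3. This spacing, which places successive duplexes end to end, was the most frequent of the 41 counted. On the same strand, a 5′ end lay exactly 1 span downstream of another 383 times in replicate 1, against a mean of 297 ± 14.2 over the 10 neighbouring distances, and 3058 times in replicate 2, against 2678 ± 65.95. On the right side there were too few opposite-strand pairs to describe an offset, with 0 pairs at −2 nt in replicate 1 and 3 in replicate 2, all 3 of them in the inner right patch.

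The ratio between the libraries differed between the segments, on each side of the gap. In RPM, replicate 2 had 2.79 times (interval 2.72 to 2.86) the inner left reads of replicate 1 but 0.412 times (0.371 to 0.457) the outer right reads. The inner right patch went with the inner left segment, at 4.42 times (2.86 to 7.18), and the outer left segment stood at 0.677 times (0.511 to 0.903). The 2 outer left windows with 10 or more reads in each library went different ways, with 1.25 times at bases 834001 to 835000 and 0.417 times at bases 835001 to 836000. Single windows of the inner left segment ranged from 1.97 to 5.24 times, and the 7 outer right windows with 10 or more reads in each library ranged from 0.232 to 0.597 times, so these sets did not overlap. The level of these ratios depends on the total used. With the block kept in the total, the ratios were 6.82 for the inner left and 1.01 for the outer right segment, so the lower outer right level of replicate 2 was no longer seen. The quotient of the segments does not depend on the total and was 6.78 with all reads and 6.52 with single-place reads. With 1 library behind each side of a ratio, its spread across cultures was not measured. The profiles along the segments were alike all the same, with Pearson r = 0.93 and Spearman rho = 0.87 for log2(RPM + 1) across the 20 inner left windows, and r = 0.86 and rho = 0.78 across the 50 windows of the right side.

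**Figure D5:**
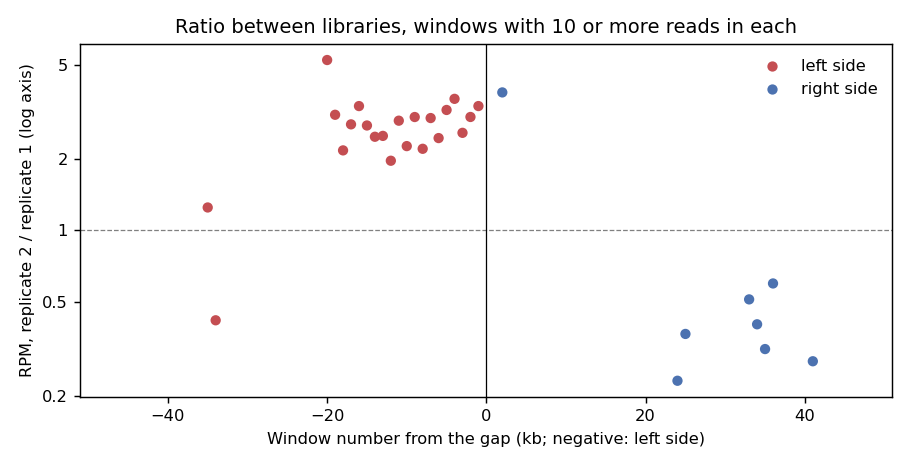
Ratio of RPM in replicate 2 to replicate 1 (vertical axis, logarithmic) against distance from the gap in windows of 1 kb, for windows with 10 or more reads in each library. Inner left windows lie between 1.97 and 5.24 and outer right windows between 0.232 and 0.597, the inner right window stands at 3.83 and the outer left windows at 1.25 and 0.417, and with the block kept in the total the outer right segment as a whole comes to 1.01.

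The flanks of the long quiet stretches of supercontigs 1 and 2, taken as 50 kb on each side, were set beside those of supercontig 3. With 2 libraries the differences were not tested. On each of those supercontigs both flanks held dense windows, 43 and 20 on supercontig 1 and 24 and 12 on supercontig 2 for left and right. Supercontig 3 had 19 and 0. Each flank had 46 to 50 windows with reads. Of all such windows outside the block 5.92% were dense, so the 0 lay near the general level. The right flank of supercontig 3 also had the lowest share of reads of the 6 flanks in both libraries. The 23-nt share of its left flank, 40.2% in replicate 1 and 41.7% in replicate 2, was close to that of the right flank of supercontig 1 (38.97% and 36.9%) and the left flank of supercontig 2 (38.3% and 38.1%). The right flank had the fewest reads from several places, 28.7% and 41.6%, while the other flanks had from 65.9% to 93.04% and from 70.7% to 95.4%. Pairs at −2 nt stood 1.18 to 1.53 times above their neighbours in replicate 1 and 1.24 to 1.37 times in replicate 2 on the flanks of supercontigs 1 and 2, against 1.65 and 1.43 on the left flank of supercontig 3, so this offset was not particular to supercontig 3.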

How the data were processed

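Each deposited file has 1 line per distinct sequence, with its place, a name and a mapping score. The submitters' processing notes name BWA, and no source used here gives its version, settings or reference build. RNA in a gel fraction of 10 to 40 nt carrying a 5′ monophosphate was cloned, per the labels' protocols. The number after the hyphen in the name never rose with rank and was used as the raw count of reads, as deposited by the authors. The mapping score deposited by the authors ran from 0 to 37, and 0 was read as several equally good places. Positions count from 1 on the deposited supercontigs, and no gene table of the same build was used.

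Reads of 21 to 28 nt were counted by leftmost base with Python 3.11.15, pandas 2.3.3, numpy 2.4.6 and scipy 1.17.1. Members, segments and measures were chosen with earlier results of these data known. Named were the 5 densest windows, the 3 leading members and the 3 leading 5′ ends of each side by mean RPM, the positions nearest the gap and the joined loci (dense windows with fewer than 2 others between them). Other places were named after their values were seen. Pair counting was tested on simulated data made from the inner left positions, moved at random: 99.5% of 200 added pairs were recovered in each library. The added pairs met the counting rule by design, so this checks the counting alone. With no pairs added, the ratio at −2 nt in the moved positions was 1.15 for replicate 1 and 1.06 for replicate 2. Alternatives changed 1 choice at a time.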

Additional observations from a re-analysis of the deposited data

Results flagged for a closer look

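Reads shorter than 21 nt, the lower size limit of the members, were left out of the counts of members, windows and segments above. In the region they numbered 5 in replicate 1 and 15 in replicate 2, all 20 nt long, or 0.0668% and 0.0284% of its reads. In the whole libraries, 3080905 of 3086539 and 3485818 of 3492513 mapped reads were of 21 to 28 nt, and the rest were shorter. Short reads were thus not in excess in this region. Of these, 3 and 5 reads lay inside the gap, at 2 and 3 positions with a single best place, although the gap held only 5 and 4 reads of 21 to 28 nt. No control library was used.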

How the results depend on the processing

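Means of the 2 libraries are given. A value counted as moved beyond the SD between libraries, or for the ratio between libraries beyond its interval. No paired analysis was possible because there is 1 group. With all spans kept, none of 19 results moved. With reads of a single best place alone, 12 of 17 did. Here the total, also that behind RPM, was cut to the single-place reads outside the block, so it is smaller than the main total. Of that smaller total, the left side made up 0.446% and the right side 0.144%. The plus-strand share became 34.1% and 35.05%, and the 23-nt share 39.6% and 20.5%. The left minor-strand share became 24.1%, the left share within 10 kb 49.2%, the ratio between libraries 2.37 and 0.401, and the dense windows 6 and 3. With each position counted once, in the totals as well, 9 of 17 moved. The plus-strand share went to 40.9% and 28.7%. On the left the minor-strand share went to 37.1%, the 23-nt share to 31.8% and the share with several places to 86.1%. The left share within 10 kb went to 44.9% and the left ratio between libraries to 1.40. The right side made up 0.263% of the positions outside the block, and right dense windows went to 6. With the block kept in the total, which for the ratio between libraries was chosen after seeing the data, the right share became 0.0262%, left dense windows 8, and the ratio 6.76 on the left and 1.32 on the right, where its direction turned. Windows of 500 bases gave minor-strand shares of 27.4% and 5.95%. Within 5 and 20 kb of the gap lay 25.1% and 99.3% of the left reads. At 50 RPM the right had 1 dense window, at 200 RPM the left had 17. The general share of dense windows was counted for the main setting alone. The dense counts under other settings therefore have no general level beside them. Without the most abundant member of each side, chosen after seeing the data, left values became 33.6% plus strand, 29.3% minor strand and 39.4% at 23 nt. Leaving out a replicate leaves the other library's own value, which by construction lies within the SD of 2 libraries, so it is no check of stability: the left-to-right ratio ran from 9.74 to 50.02 around its mean of 29.9, the left share from 0.762% to 2.11% and the right share within 10 kb from 4.02% to 28.0%. Right dense windows were 0 without replicate 1 and 4 without replicate 2. The left-to-right ratio was 4.44 with single-place reads and 10.5 with each position once. Both were counted as not moved, because its SD between the 2 libraries was 28.5 around the mean of 29.9. That count is thus no sign that the size of this ratio was stable. The left pair ratio ran from 1.43 to 1.65 over all its alternatives. The right side is limited by depth, with 1036 reads at most per library.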
